A study of Mus musculus with 4 samples.

Results

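The genes described here build the stacked discs of the photoreceptor outer segment or return the cell to its dark state after light. They are Prph2, Rom1, Rp1, Guca1a, Guca1b, Gucy2e, Gucy2f, Grk1 and Rcvrn, chosen by symbol, and all 9 were found among the 14572 entries of the deposited table. RNA was sequenced from whole mouse retinas taken 5 days after 1 h of acute ocular hypertension (raised pressure in the eye, used as a model of glaucoma damage). The wild-type group (WT) and the group labelled PLSCR1-TG, named after the membrane phospholipid scramblase PLSCR1, have 2 libraries each, all from C57BL/6 mice and all from injured eyes. Which promoter and cell type drive the transgene, and how many animals went into a library, the labels do not say. The labels give the age as E14.5, which is at odds with an injured eye followed for 5 days. No uninjured eye enters the comparison, which is between genotypes after injury.

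Rods and cones carry their visual pigment in a modified cilium, the outer segment, filled with flat membrane discs. The tetraspanins peripherin-2 (Prph2) and Rom1 join at the disc rim and hold its curved edge, and Rp1 is a microtubule-binding protein that keeps the discs in register along the axoneme. In darkness cGMP holds cation channels open and calcium flows in; light lowers cGMP, the channels close and calcium falls. Low calcium then lets the activating proteins GCAP1 (Guca1a) and GCAP2 (Guca1b) switch on the retinal guanylate cyclases (Gucy2e and Gucy2f), which make new cGMP. It also releases the visual pigment kinase (Grk1) from its calcium-binding inhibitor recoverin (Rcvrn), so that bleached pigment is phosphorylated and shut off.

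Promoters of 6 of the 9 genes matched in the RefSeq sequences (GRCm38.p6), and Rp1, Guca1b and Rcvrn had no match. Both cyclases and GCAP1, which work on the same cGMP pool, are shown with Prph2, the most abundant of the 9. Each line holds the 250 bases before the start of transcription, 5′ to 3′ on the gene's strand, and capitals mark TAATCC or its reverse complement GGATTA, the core of the site bound by the photoreceptor factor CRX.
Gucy2e, chr11:69237023-69237272, minus strand: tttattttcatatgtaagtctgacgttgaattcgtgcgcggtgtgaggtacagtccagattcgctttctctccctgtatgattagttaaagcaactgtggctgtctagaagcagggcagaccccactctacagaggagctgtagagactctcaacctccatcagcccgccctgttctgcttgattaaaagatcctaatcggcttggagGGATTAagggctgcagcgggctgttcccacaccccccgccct
Gucy2f, chrX:142196937-142197186, minus strand: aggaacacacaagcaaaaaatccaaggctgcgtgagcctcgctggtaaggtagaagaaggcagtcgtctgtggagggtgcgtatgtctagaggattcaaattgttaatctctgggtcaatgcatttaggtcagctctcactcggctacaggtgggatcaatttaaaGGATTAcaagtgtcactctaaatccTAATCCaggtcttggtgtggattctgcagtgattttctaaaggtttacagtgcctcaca
Guca1a, chr17:47400607-47400856, minus strand: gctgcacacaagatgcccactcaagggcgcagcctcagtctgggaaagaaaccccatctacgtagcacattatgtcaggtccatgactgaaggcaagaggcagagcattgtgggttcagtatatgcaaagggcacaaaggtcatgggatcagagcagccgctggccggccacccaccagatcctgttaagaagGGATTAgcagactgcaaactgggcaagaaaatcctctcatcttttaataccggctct
Prph2, chr17:46910228-46910477, plus strand: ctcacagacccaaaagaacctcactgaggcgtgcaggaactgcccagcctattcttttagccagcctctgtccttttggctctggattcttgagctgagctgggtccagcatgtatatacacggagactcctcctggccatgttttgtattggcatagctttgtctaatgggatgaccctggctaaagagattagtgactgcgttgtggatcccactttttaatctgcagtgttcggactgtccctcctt
The core stood in 3 of the 6 windows, against 6.25% of all 32851 RefSeq windows of this length. Gucy2e had it from 42 to 37 bases before the start and Guca1a from 57 to 52. Gucy2f had it at 84 to 79 bases and, on the other strand, at 59 to 54. Prph2, Rom1 and Grk1 did not have these letters in the window, which says nothing of CRX binding.

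The libraries held between 28866589 and 41215649 estimated reads. Plscr1, the gene that the transgene is named after, had 7.95 and 8.33 CPM (reads scaled to 1000000 per library after TMM adjustment of library size) in wild type (libraries P1041 and P1033) against 9.76 and 8.03 in TP-1036 and TP-1040, with a log2 difference of 0.13 ± 0.17 (SE, adjusted p = 0.742, edgeR quasi-likelihood test with Benjamini-Hochberg adjustment). Its reads therefore do not check the labels, and TP-1036 and TP-1040 are called transgenic-labelled. TP-1036 stands apart from the rest: crystallins of the lens list summed to 232 CPM there against 0.815 to 5.69 CPM in the others, with Crybb2 at 0 in a wild-type library and 5 of 8 lens markers not among the entries. All 8 rod markers had higher values in the transgenic-labelled group, summing to 63592 and 69477 CPM against 55708 and 61864, and cone markers summed to 995 and 1055 against 908 and 964 CPM. Microglia and macrophage markers (9 of 9 higher) summed to 246 and 358 CPM against 132 and 151, and Müller glia markers (9 of 9 higher) to 8073 and 10628 against 6373 and 6852. Ganglion cell markers (0 of 7 higher) summed to 350 and 400 CPM against 442 and 657, and amacrine markers (1 of 6 higher) to 604 and 622 against 657 and 748. Pigment epithelium markers (4 of 5 tested higher, of 8 in the list) summed to 68.6 and 97.3 CPM against 33.2 and 48.9. Bipolar markers (4 of 7 higher) overlapped between the groups, at 1448 and 1672 CPM against 1405 and 1560. In whole retina, fewer cells of a type and less RNA per cell cannot be told apart, and the part of these shifts in the results below was not tested.

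Prph2 stood highest of the 9 when scaled to transcript length. Its mean over the 4 libraries was 1975 ± 226 CPM per kilobase of the longest annotated transcript (SD, n = 4), 1.83-fold above Rom1 with 1077 ± 173. Then came Rcvrn with 999 ± 160, Guca1a with 728 ± 127 and Guca1b with 633.7 ± 55.6 CPM per kilobase. Rp1 followed with 356.7 ± 32.2 and Grk1 with 233.2 ± 38.0. The cyclases were lowest, Gucy2e at 104.6 ± 9.04 and Gucy2f at 35.7 ± 10.3 CPM per kilobase. Ranges over the libraries overlapped for 3 neighbouring pairs, Rom1 with Rcvrn, Rcvrn with Guca1a and Guca1a with Guca1b. The order was the same in every library except TP-1040, where Rcvrn lay just above Rom1. Longest transcripts understate the length-scaled level of a gene that uses a shorter one. Gucy2e and Rp1 may, with 4 annotated transcripts each, as may Grk1 with 3 and Prph2 and Guca1b with 2 each.

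**Figure D1:**
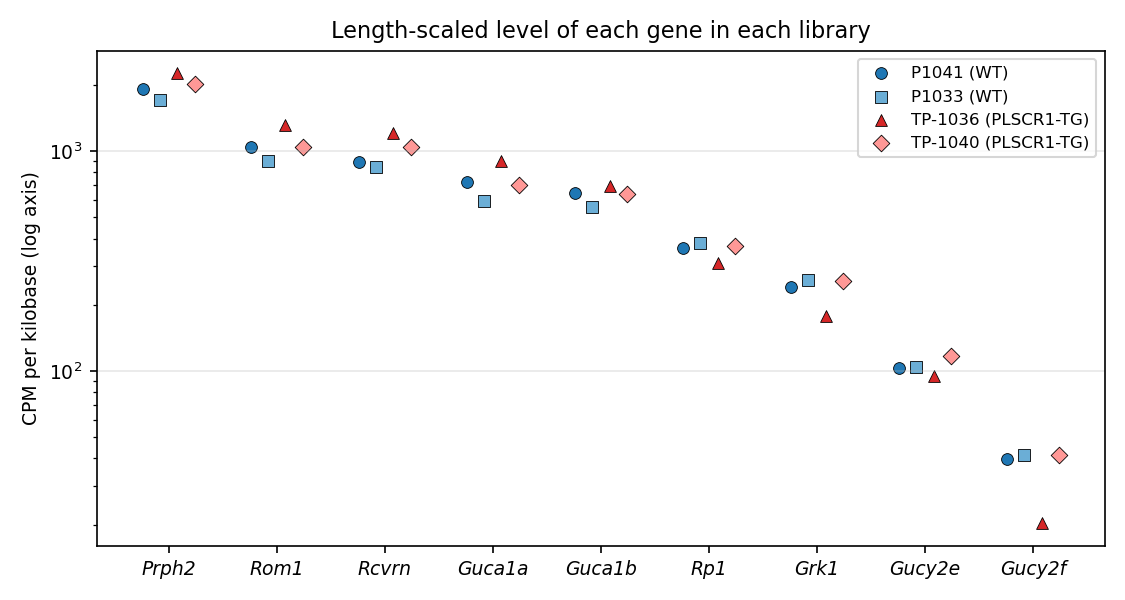
Level of each gene in each library, in CPM per kilobase of the longest transcript on a log axis, with 1 point per library (blue for wild type, red and pink for the transgenic-labelled libraries). Prph2 is highest and Gucy2f lowest in all 4 libraries, and TP-1036 (red triangle) is the highest library for the 5 genes on the left and the lowest for the 4 on the right.

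Among the disc genes, Prph2 (chr17:46910459-46924933, plus strand, 3 exons in its longest transcript; GRCm38, GENCODE M21) had 5100.4 and 4573 CPM in the wild-type libraries P1041 and P1033, and 6024 and 5356 CPM in TP-1036 and TP-1040. Both transgenic-labelled values lay above both wild-type ones, with group means of 5689.9 ± 473 against 4837 ± 373 CPM (SD, n = 2). The fitted difference of 0.23 ± 0.15 (log2, SE), or 1.18-fold, did not pass (adjusted p = 0.547, edgeR). Rom1, its rim partner (chr19:8927391-8929356, minus strand, 3 exons), had 1588 and 1365 CPM in wild type against 1994 in TP-1036 and 1589.7 in TP-1040. Its groups did not overlap, but TP-1040 lay only just above P1041. Its difference was 0.28 ± 0.16 (adjusted p = 0.543, edgeR).

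Rp1, the axonemal protein (chr1:3999557-4409241, minus strand, 4 exons in its longest transcript), went the other way in value. It had 2501 and 2621 CPM in wild type against 2127 in TP-1036 and 2552 in TP-1040. TP-1036 was the low library, while TP-1040 lay between the wild-type values. The fitted difference was -0.13 ± 0.14 (log2, SE; adjusted p = 0.691, edgeR), and it was -0.00077 without TP-1036.

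The guanylate cyclases differed from each other. Gucy2e encodes the main retinal cyclase, GC1 (chr11:69218117-69237036, minus strand, 19 exons in its longest transcript). It had 855 and 864 CPM in wild type against 794 in TP-1036 and 975 in TP-1040, so the transgenic-labelled libraries lay on either side of wild type. The difference was 0.041 ± 0.14 (log2, SE; adjusted p = 0.909, edgeR). Gucy2f, the second cyclase, GC2 (chrX:142081160-142196931, minus strand, 20 exons), had 322 and 335 CPM in wild type, 165 in TP-1036 and 337 in TP-1040. TP-1036 therefore held 50.3% of the wild-type mean (geometric) and TP-1040 held 103%. The 4 libraries gave -0.39 ± 0.31 (log2, SE; adjusted p = 0.595, edgeR). Without TP-1036 the sign turned to 0.041, and without TP-1040 the value was -0.99, with an adjusted p of 0.000236 in the same test.

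The cyclase activators had higher values in TP-1036 and values near wild type in TP-1040. Guca1a, which encodes GCAP1 (chr17:47394558-47400584, minus strand, 4 exons), had 631 and 516 CPM in wild type against 785 and 612 in TP-1036 and TP-1040. Its groups overlapped, because P1041 lay above TP-1040, and its difference was 0.28 ± 0.17 (log2, SE; adjusted p = 0.545, edgeR). Guca1b, which encodes GCAP2 and lies beside it on the opposite strand (chr17:47385393-47392967, 4 exons), had 1072 and 933 CPM against 1157 and 1066. It overlapped in the same way, with 0.15 ± 0.13 (adjusted p = 0.631, edgeR). In both genes P1033 was the lowest library, as it was for Prph2, Rom1 and Rcvrn.

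Rcvrn, the calcium-dependent inhibitor of the pigment kinase (chr11:67695326-67703333, plus strand, 3 exons), lay farthest apart for its spread. It had 932 and 883 CPM in wild type and 1251 and 1090.0 in TP-1036 and TP-1040, so the groups did not overlap. The gene lies inside the span of Glp2r, on the opposite strand, with no shared exon. The difference of 0.37 ± 0.13 (log2, SE), or 1.29-fold, had an unadjusted p of 0.0289 and an adjusted p of 0.538 in edgeR, and 601 of the other tested genes had a smaller p. Its value stayed between 0.18 and 0.47 over the 15 alternatives tried. Grk1, the kinase (chr8:13405081-13421951, plus strand, 7 exons in its longest transcript), had 1796 and 1917 CPM in wild type, 1317 in TP-1036 and 1902 in TP-1040. TP-1036 was again the low library and TP-1040 lay within the wild-type range. The fitted -0.21 ± 0.19 (log2, SE; adjusted p = 0.644, edgeR) turned to 0.039 without TP-1036. Grk1 is the only one of the 9 whose deposited reads are not whole numbers (51726.58 in P1041, for example). Of its transcript words of 31 bases, 3.82% also occur in transcripts of 305 other genes on either strand. That share was 0.738% for Guca1b, 0.0865% for Gucy2f and 0 for the other 6, and the 9 shared no word with each other.

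Ratios between partners within a library do not depend on how libraries are scaled. Rom1 stood at 0.547 and 0.524 of Prph2 per kilobase in wild type and at 0.581 and 0.521 in TP-1036 and TP-1040. Guca1a was 1.12 and 1.06 times Guca1b in wild type and 1.30 and 1.10 times in TP-1036 and TP-1040. Both ratios overlapped between groups. The ratio of Gucy2f to Gucy2e was 0.386 and 0.398 in wild type against 0.213 in TP-1036 and 0.355 in TP-1040. Rcvrn was 3.71 and 3.29 times Grk1 in wild type against 6.79 and 4.10 times. These last ratios did not overlap between groups. In each, however, the distance between the transgenic-labelled libraries was larger than that from TP-1040 to wild type. Of all tested genes, 23.8% lay apart with higher and 24.0% with lower values, and the share among gene pairs was not worked out. Rcvrn has a short transcript and Grk1 a long one. In TP-1036 the trend of all tested genes on length, described below, was 0.29 for Rcvrn and -0.29 for Grk1 (log2). It was -0.34 for Gucy2e and -0.32 for Gucy2f. The part of length in these ratios was not tested. With 2 against 2 libraries an exact permutation test cannot reach p = 0.05, and none was run on the ratios.

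**Figure D2:**
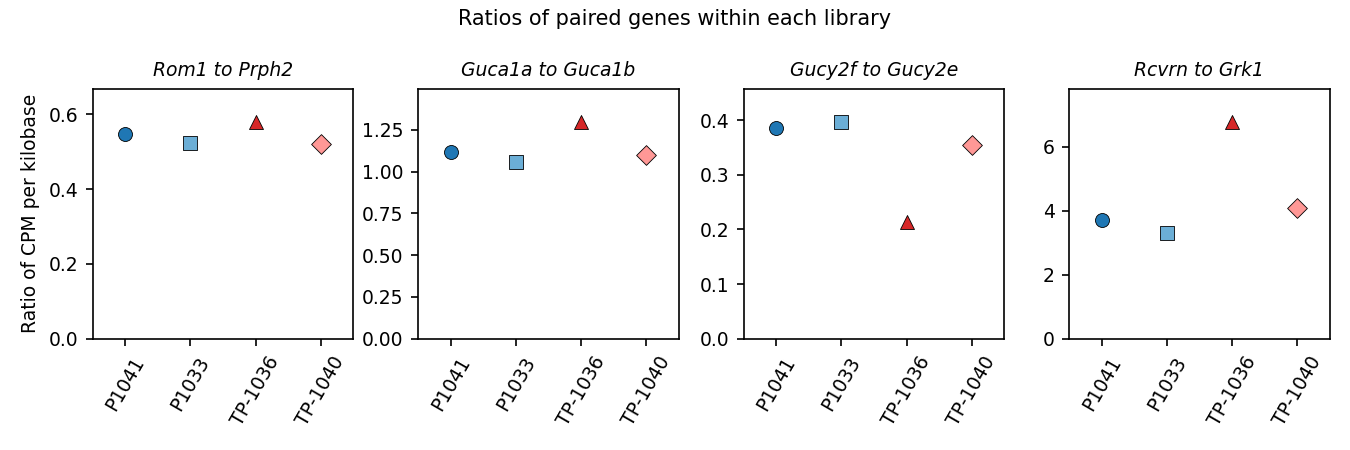
Ratio of CPM per kilobase between partner genes, with 1 point per library and each axis starting at 0. Rom1 to Prph2 spans 0.521 to 0.581 over the libraries, while TP-1036 stands apart for Gucy2f to Gucy2e (0.213) and Rcvrn to Grk1 (6.79).

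Across the 9 genes, 6 had a higher and 3 a lower fitted value in the transgenic-labelled group, beside 50.4% higher among all 12687 tested genes. The median log2 difference was 0.15, against 0.0023 for all tested genes. With edgeR, 0 of the 9 passed an adjusted p of 0.05 (0.0% of all genes), and 1 of the 9, Rcvrn, had an unadjusted p under 0.05 (8.88% of all genes). DESeq2 also called 0 of the 9 (0.544% of all genes). Groups did not overlap, with higher values, for Prph2, Rom1 and Rcvrn, 3 of the 9 against 23.8% of all genes, and 0 of the 9 lay apart with lower values (24.0%). A share of 3 in 9 is near that background. Together the 9 genes summed to 14796 and 14006 CPM in wild type and to 15614 and 15479 CPM in TP-1036 and TP-1040. Prph2 was the largest part of the sum in every library. It gave 5100 and 4573 CPM in wild type and 6024 and 5356 CPM in TP-1036 and TP-1040. In TP-1036 that sum combines 5 genes at their highest with 4 at their lowest.

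Several of these values depended on 1 library. Without TP-1040, 5 of the 9 passed, Rom1, Guca1a and Rcvrn with higher and Gucy2f and Grk1 with lower values, but 30.9% of all genes passed as well. That fit compares TP-1036 alone with wild type and takes its spread from the wild-type pair. Without TP-1036, P1041 or P1033, 0 of the 9 passed. The median of the 9 was 0.25 without P1041 and 0.053 without P1033.

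**Figure D3:**
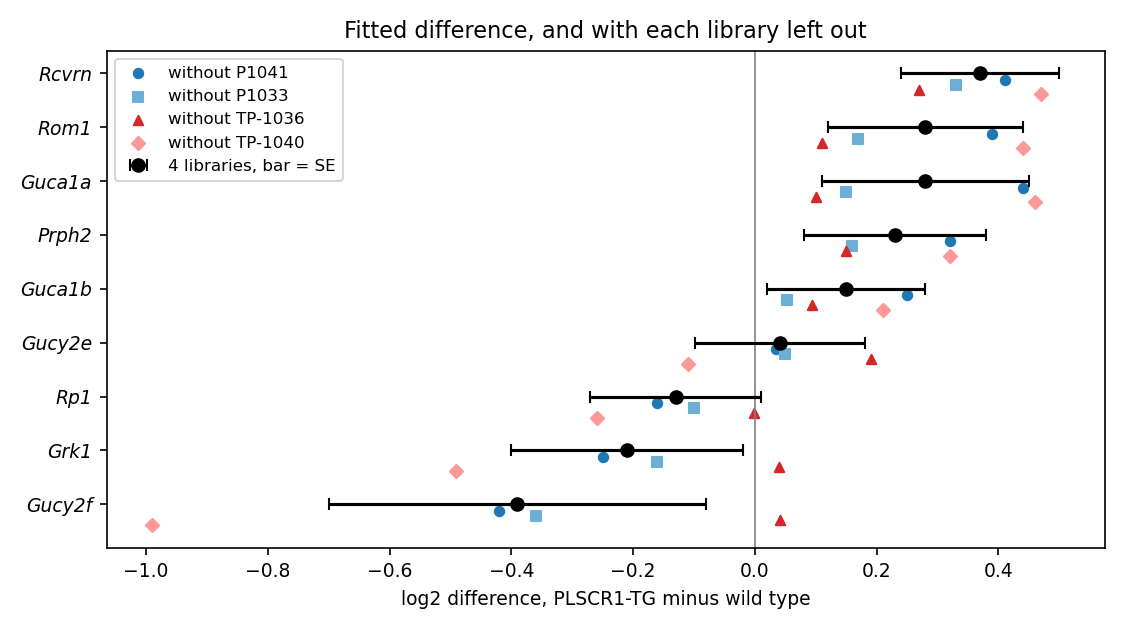
Fitted log2 difference of each gene between the transgenic-labelled and wild-type groups (black point, bar = SE), and the value with each library left out (coloured points). Gucy2f runs from -0.99 without TP-1040 to 0.041 without TP-1036, while Rcvrn stays between 0.27 and 0.47.

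The split within TP-1036 went with transcript length. It went equally with level per kilobase, where the 5 shorter genes all stand above the 4 longer ones. Among the 9, length and that level cannot be told apart. The 5 genes with transcripts from 873 to 2665 bases (Guca1a, Rcvrn, Rom1, Guca1b and Prph2) each had their highest value in TP-1036, with a median log2 difference of 0.44 to the wild-type mean. The 4 genes with transcripts from 6869 to 8331 bases (Rp1, Grk1, Gucy2f and Gucy2e) each had their lowest value there, with a median of -0.38. In TP-1040 the medians were 0.11 and 0.036. Across the 9 genes Spearman's correlation of length with the difference was -0.87 for TP-1036 and -0.28 for TP-1040. Across 12559 tested genes with a known length it was -0.46 and -0.06, and genes of 1 library share its depth and RNA. The wild-type libraries also differed with length. P1033 lay below P1041 by a median of 0.20 on the log2 scale for the 5 short genes. It lay above P1041 by 0.063 for the 4 long ones. For P1033 minus P1041, Spearman's correlation with length was 0.75 across the 9 genes and 0.16 across the 12559. Its sign depends on which wild-type library is subtracted from the other. A relation with length among the 9 was thus also present between libraries of the same genotype.

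Against the smooth trend of all tested genes on length, TP-1036 placed Rp1 and Guca1b almost on the line (-0.27 with a trend of -0.25, and 0.21 with a trend of 0.21). Gucy2f lay below it, at -0.99 with a trend of -0.32. Gucy2e, whose longest annotated transcript has nearly the same length, lay above it, at -0.11 with a trend of -0.34. Gucy2e has 4 annotated transcripts and may use a shorter one, while Gucy2f has 1, so the 2 may not be matched in length. The same doubt holds for Rp1 with 4 annotated transcripts, Grk1 with 3, and Prph2 and Guca1b with 2 each. Grk1 was at -0.49 with a trend of -0.29. Rcvrn and Prph2 lay above the trend by 0.18 and 0.24 in TP-1036, and by 0.24 and 0.14 in TP-1040, where the trend was nearly flat. They were not alone. In TP-1036 and TP-1040, Rom1 lay above the trend by 0.21 and 0.10, Guca1a by 0.15 and 0.072 and Gucy2e by 0.22 and 0.20. Rp1, Grk1 and Gucy2f lay below the trend in TP-1036 but not in TP-1040. With the trend removed from every library, the fitted differences were 0.21 for Rcvrn, 0.21 for Gucy2e, 0.19 for Prph2 and -0.26 for Gucy2f (log2), and 0 of the 9 passed (smallest adjusted p = 0.428, edgeR). When the libraries were scaled to the reads of 12 rod genes instead, which moved the median of all tested genes to -0.18, Rcvrn was at 0.18, Rom1 at 0.10 and Prph2 at 0.053, while Gucy2f, Grk1 and Rp1 were at -0.55, -0.38 and -0.31.

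**Figure D4:**
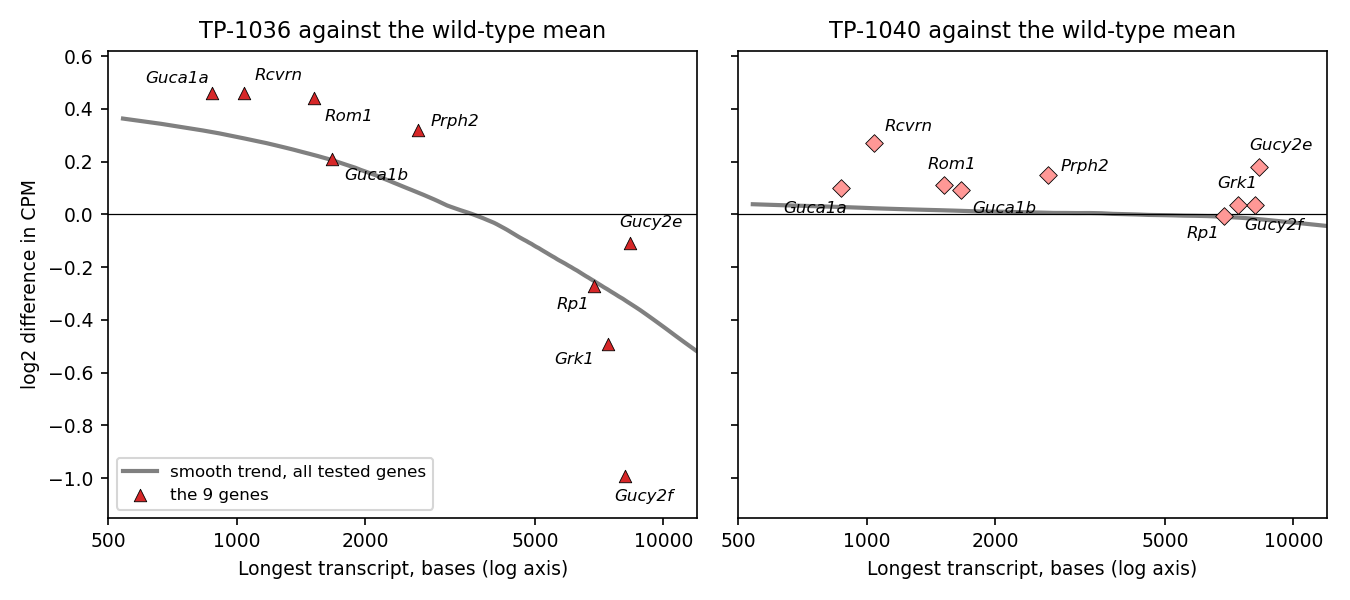
Difference of each of the 9 genes from the wild-type mean (log2 CPM) against the length of its longest transcript on a log axis, in TP-1036 (left) and TP-1040 (right), with the smooth trend of all tested genes in grey. In TP-1036 the trend falls with length and Gucy2f lies far below it at -0.99, while in TP-1040 the trend is nearly flat and Rcvrn is the highest of the 9 at 0.27.

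Other genes of the outer segment had differences of similar size. Of 15 genes of outer segment structure 0 passed (edgeR), with 10 higher and 5 lower values and a median of 0.036 (log2). Tulp1, a photoreceptor protein needed for transport to the outer segment, had 1018 ± 34.2 CPM in wild type and 1301 ± 169 in the transgenic-labelled group (SD, n = 2), a log2 difference of 0.35 ± 0.14 (SE). Reep6, a rod membrane-trafficking protein, was at 0.28 ± 0.14 and Cdhr1, a cadherin at the base of the discs, at 0.19 ± 0.12. Rpgr, a regulator at the connecting cilium, was at -0.36 ± 0.17.

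In the list of 30 genes of light response and recovery, 21 had higher and 9 lower values with a median of 0.12, and 0 passed (edgeR). Gnat1, the rod transducin, was at 0.28 ± 0.15, Gnb1, the β subunit of transducin, at 0.12 ± 0.13 and Pde6g, the inhibitory phosphodiesterase subunit, at 0.36 ± 0.15 (log2, SE). Rgs9, which speeds the shut-off of transducin, had 514 and 530 CPM in wild type, 306 in TP-1036 and 502 in TP-1040 (-0.37 ± 0.23). Slc24a2, a sodium-calcium exchanger of cones and other neurons, had 129 and 113 CPM against 72.5 and 99.1, lower in both transgenic-labelled libraries (-0.50 ± 0.17, adjusted p = 0.538, edgeR). Among 13 photoreceptor transcription factors 8 had higher and 5 lower values (median 0.011), and 0 passed. Crx, which activates many photoreceptor genes, had 1202 CPM in each wild-type library against 1273 and 1276. Its fitted difference was 0.084 ± 0.12 (log2, SE; adjusted p = 0.752, edgeR). Nrl and Nr2e3, which set rod identity, were at 0.26 ± 0.14 and 0.24 ± 0.16, Rorb at -0.27 ± 0.16 and Neurod1 at -0.072 ± 0.12.

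**Figure D5:**
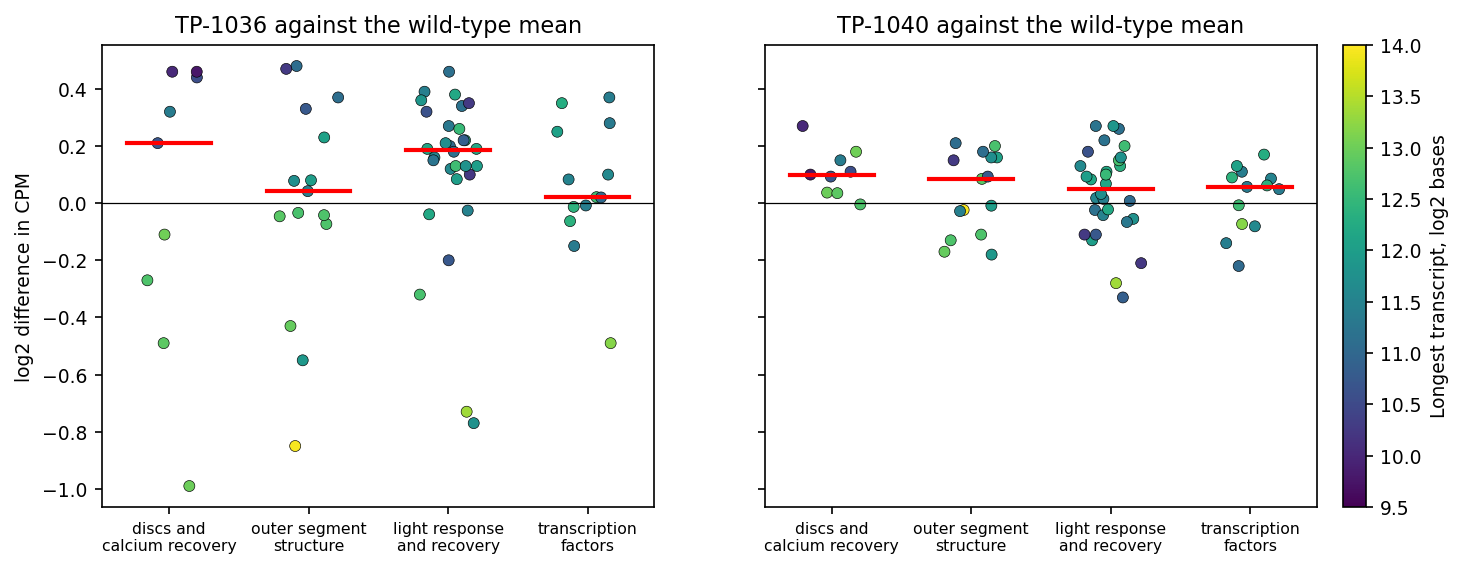
Difference from the wild-type mean (log2 CPM) in TP-1036 (left) and TP-1040 (right) for the 9 genes and the 3 lists of other photoreceptor genes, with 1 point per gene coloured by transcript length and a red line at each median. Medians in TP-1036 are 0.21, 0.042, 0.18 and 0.021 from left to right, and the points lie closer together in TP-1040.

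The profile over the 4 libraries that lay nearest to a gene was sought among 10148 tested genes with a mean of at least 10 CPM, by the root mean square distance of centred log2 CPM. Prph2 lay nearest to Slc38a10 (at 0.00929 log2 units), Rom1 to Aimp1 (0.00882), Guca1a to Rpl30 (0.0169) and Rcvrn to Snf8 (0.00643). For the long genes these were Ubr2 for Rp1 (0.00331), Pogz for Grk1 (0.00402), Agbl5 for Gucy2e (0.00153) and Fam135b for Gucy2f (0.0357). Gucy2f was the most isolated of the 9, with its nearest other member, Grk1, at 0.215, whereas Rom1 and Guca1a lay 0.0276 apart. These distances describe the 4 libraries and nothing more.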

How the data were processed

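The authors deposited estimated counts per gene in 4 columns and FPKM in 4 more; the counts were used, since they keep each library's depth, and the FPKM columns were not used here. Names of count columns give a group but no single sample. The unit was read from the values (80.3% to 82.4% whole numbers per column, with unequal totals). Bowtie 0.12.2 and the builds mm8 and mm9 appear in the submitters' processing notes with no role given, while no source used here names the counter, the annotation or the strand setting, so reads of opposite strands may be mixed. The case columns, TP-1036 and TP-1040, were taken as PLSCR1-TG, the only other group.

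Lengths are those of the longest GENCODE M21 transcript per symbol (167 entries without a match took the median of 3472 bases). The test kept 12687 genes whose FPKM, worked out from the counts, averaged 1 or more. Estimated counts were rounded and tested with edgeR 4.0.16 (TMM scaling, quasi-likelihood, two-sided, Benjamini-Hochberg at 0.05; limma 3.58.1, DESeq2 1.42.0, R 4.3.3), with 2 residual and 4.39 prior degrees of freedom. SE is the log2 difference over the root of F. Library differences use log2(CPM + 0.5), and limma used log2(CPM + 1). Chi-square over its degrees of freedom was 12.1 between the wild-type and 67.7 between the transgenic-labelled libraries, so neither pair is a repeat deposit of 1 library. The labels do not say whether libraries come from separate animals, so the spread behind each p-value may be technical. The tests were checked on simulated data. Alternatives were 5 scalings, 2 other tools, 3 filters, removal of the length trend (lowess, span 0.3) and leaving out each library.

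The 9 genes and the lists were chosen with earlier results of these data known. All 9 are named. From each list the text names the 3 genes with the largest difference and the 3 with the highest length-scaled level, and for likeness the nearest genes; a few that this rule takes are left out here. Positions are GRCm38, a later build than those the authors name, and the table itself has no coordinates.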

Additional observations from a re-analysis of the deposited data

How the results depend on the processing

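Of 99 member values under the 11 alternatives that kept all libraries, 96 kept their sign and 0 passed the threshold. The sign turned for Guca1b (-0.03) and Gucy2e (-0.13) when scaled to rod genes, and for Gucy2e (-0.013) under quantile normalization with limma. In the main fit the median of the 9 was 0.15 and that of all tested genes 0.0023. Scaled to rod genes, both moved down, to -0.03 and -0.18. Under quantile normalization they were 0.03 and 0.015, and the cause of that change was not tested. Leaving out 1 library in turn, the median ran from 0.053 to 0.25 and the number of the 9 that passed from 0 to 5. Gucy2e ran from -0.11 to 0.19, Gucy2f from -0.99 to 0.041 and Grk1 from -0.49 to 0.039. Over all genes edgeR called 0 of 12687, and 1126 had an unadjusted p under 0.05. The number called was 1 with upper quartile scaling, 1 with quantile normalization, 1 with no filter, 1 with a mean CPM of at least 1 and 69 with DESeq2, and it was 3923 without TP-1040, 27 without TP-1036, 91 without P1033 and 29 without P1041. No paired analysis was possible because the columns carry none of the replicate numbers of the titles. The 9 genes had at least 6280 estimated reads in every library.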

Other observations

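The proteins that shut off transducin did not share 1 pattern in TP-1036, by values looked at after the data were seen. Rgs9, the catalytic subunit, lay at -0.77 there and at -0.055 in TP-1040 relative to the wild-type mean (log2). Rgs9bp, its membrane anchor, lay at -0.32 and 0.15, and Gnb5, the partner subunit, at 0.20 and 0.0078. Their fitted differences had adjusted p values of 0.547, 0.884 and 0.725 (edgeR). Rd3, which holds the guanylate cyclases inactive on their way to the outer segment, had higher values in both transgenic-labelled libraries (0.36 and 0.27), with a fitted difference of 0.31 ± 0.11 (log2, SE) and an adjusted p of 0.538 (edgeR).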
